A study of Caenorhabditis elegans with 22 samples.

Results

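The genes described here handle fatty acids in the worm: 21 acyl-CoA synthetase genes (acs), 11 acyl-CoA dehydrogenase genes (acdh), 9 enoyl-CoA hydratase genes (ech) and 9 lipid-binding protein genes (lbp). They were taken from the gene names in the deposited count table, as every name of these 4 families except acdh-1 and acdh-2, and make up 50 of its 45461 genes. The naming rule used no measured value, but the set was chosen with earlier results of these data known. The 22 libraries hold RNA of whole Caenorhabditis elegans adults. Animals were kept on agar plates with 100 nM rotenone, an inhibitor of respiratory complex I, or on control plates with the solvent, which the sample titles name as DMSO. Ages are counted from L4, the larval stage before adulthood, and were 1, 5, 10 and 20 days. Both treatments have 3 libraries per age up to day 10 and 2 at day 20. The labels give neither a strain nor a genotype, and they leave it unsaid if the replicates of a group were grown as independent cultures, so the p-values here reflect no more than the variation among the libraries at hand, and that variation may be technical.

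Fatty acids are carried inside and between cells by small lipid-binding proteins. An acyl-CoA synthetase joins a fatty acid to coenzyme A, which commits it to membrane lipid, storage fat or breakdown. In beta-oxidation an acyl-CoA dehydrogenase forms a double bond, an enoyl-CoA hydratase adds water to it, and a dehydrogenase and a thiolase finish the round. In mitochondria the electrons taken from the acyl-CoA enter the respiratory chain at ubiquinone through electron transfer flavoprotein, and those carried by NADH enter at complex I. Peroxisomes run a parallel route that in worms also shortens the side chains of ascaroside pheromones.

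All 50 genes passed the filter on low counts. Library totals ran from 25769159 to 69961601 counts. Markers of intestine, body wall muscle, epidermis, neurons, germline, sperm and early embryo were detected in every group of these whole animals. In such samples, fewer cells of a type and less RNA per cell cannot be told apart. DMSO day 10 replicate 1 stood apart, with an SD of its deviations from the group mean of 0.501 on the log2 scale, against 0.173 to 0.321 in the other libraries. Ribosomal RNA genes took 17.6% of the counts in rotenone day 5 replicate 2, against a median of 1.33% in the others. Levels are given as CPM, counts scaled to a common library total, and a gene passed when its adjusted p was under 0.05 in edgeR's quasi-likelihood test over all 16822 tested genes.

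Some members lie side by side. On genome build WBcel235, lbp-3, lbp-1 and lbp-2 follow each other on 1 strand of chromosome X with gaps of 986 and 797 bases, and acdh-10 and acdh-7 lie 114 bases apart on X. The pairs lbp-6 and lbp-5 on chromosome I and ech-9 and ech-8 on chromosome IV are 1890 and 1296 bases apart. Similarity between these neighbours was not checked, so reads shared by close copies remain uncertain for them. The library kit does not mark strand, and 32 members share no exonic base with another gene. The largest shared parts of exonic length were 14.3% in acdh-3 and 14.1% in acs-9, which RefSeq now names pkal-1. The table's ech-1 is now ech-1.1.

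Levels per kilobase (kb) of exon give the order of the genes within a group. Each family had 1 leading member at day 1. The lipid-binding protein gene lbp-9 stood at 996 CPM per kb in rotenone worms and 903 CPM per kb in DMSO worms. The gene ech-6, which encodes a short-chain enoyl-CoA hydratase, stood at 643 and 661 CPM per kb in rotenone and DMSO worms. The long-chain acyl-CoA synthetase gene acs-13 followed at 237 and 268 CPM per kb, and acdh-3 at 96.1 and 111 CPM per kb, again in rotenone and DMSO worms. At day 20 lbp-9 was at 437 and 380 CPM per kb and acs-13 at 241 and 219 CPM per kb in rotenone and DMSO worms, with ech-6 now below acs-13 in both. These levels use exonic lengths of the annotation. The gene lengths implied by the deposited RPKM and counts differed from them by more than 2-fold in 24 of 50 members and in 55.8% of 19521 genes, and ran from 21 to 10338 bases over the members. For the leading genes the implied lengths were 449 bases for lbp-9, 1026 for ech-6, 1423 for acs-13 and 73 for acdh-3, beside exonic lengths of 564, 1016, 2662 and 1505 bases. The order by length therefore rests on the annotation, and the cause of the disagreement was not tested.

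**Figure D1:**
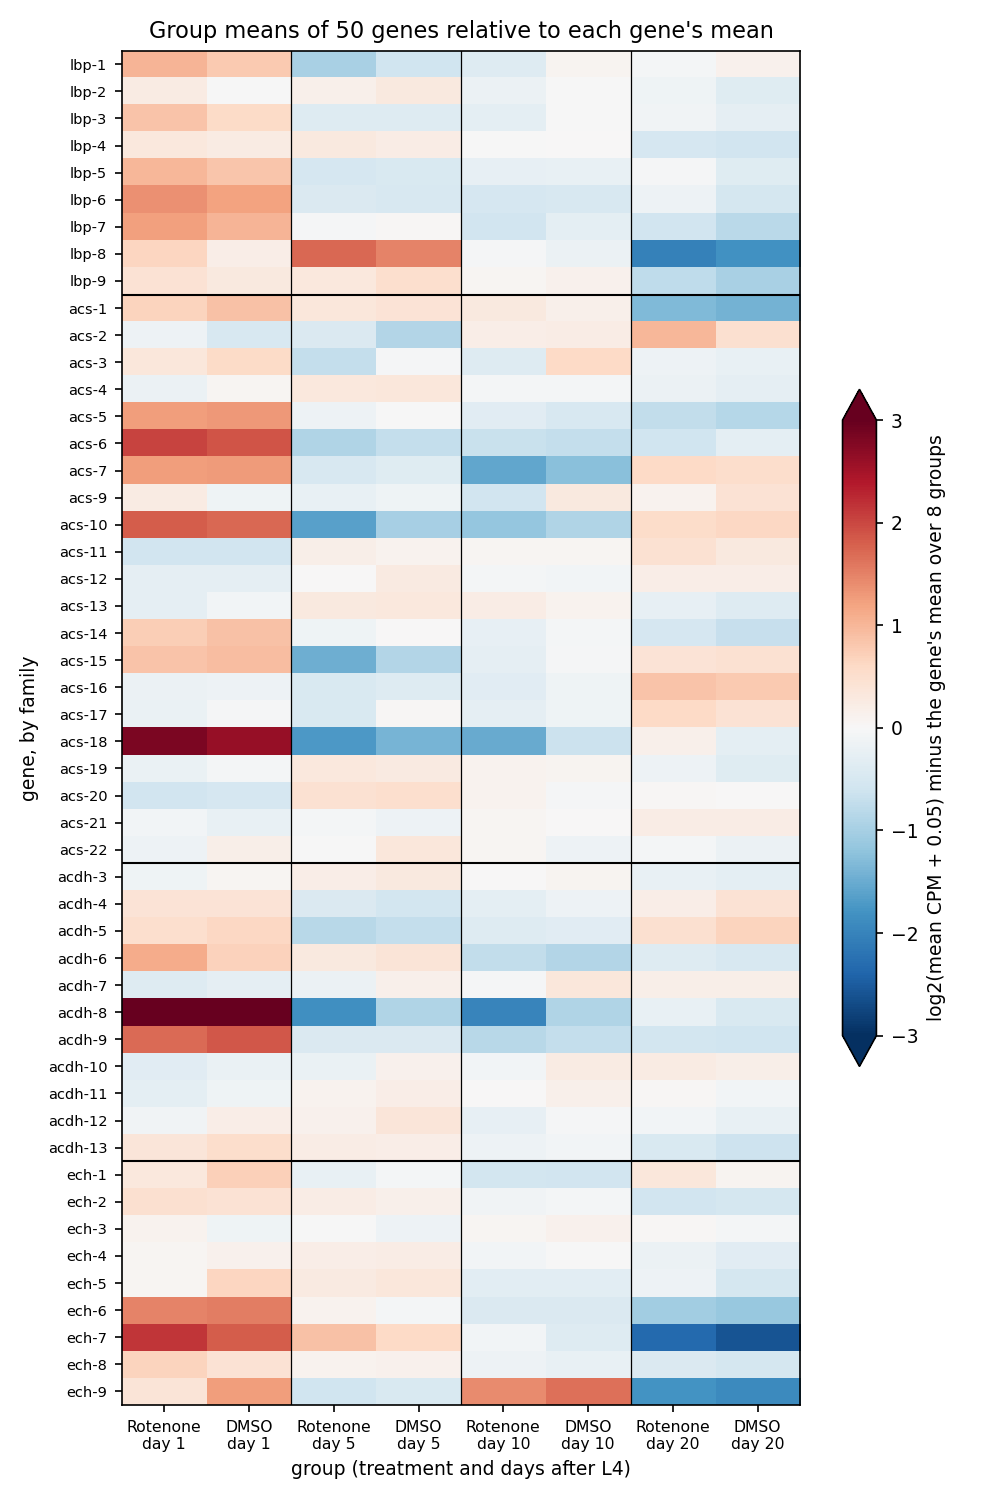
Group means of the 50 genes, as log2(mean CPM + 0.05) minus the gene's mean over the 8 groups, with rotenone left of DMSO at each day and families separated by black lines. Colour is cut at 3 log2 units either way. Columns of the same day look alike, and the changes between days, such as the fall of ech-7 and the day 5 peak of lbp-8, appear in both treatments.

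What the complex I inhibitor did to these genes was asked by comparing rotenone with DMSO at each age. Few of them passed. At day 1, 1 of 50 members was lower with rotenone (2%) and none higher, against 0.648% of all genes tested, 0.273% lower and 0.375% higher. At day 5, 1 of 50 was lower (2%), against 0.88% of all genes, 0.773% lower and 0.107% higher. At day 10, 2 of 50 were lower (4%), against 1.36% of all genes, 0.91% lower and 0.452% higher. At day 20, with 2 libraries per treatment, 0 of 50 passed, against 0.0654% of all genes, 0.00594% lower and 0.0594% higher. No member passed in the higher direction at any age. The day 1 count depended on which libraries set the spread. A fit of the 6 day 1 libraries alone called 20 members, 8 higher and 12 lower, beside 33.3% of all genes, 14.3% higher and 19% lower. Leaving DMSO day 10 replicate 1 out of the shared spread called 10 members at day 1, 2 higher and 8 lower, beside 18.4% of all genes, 4.8% higher and 13.6% lower. Between 36 and 38 of the 50 members had a fold change within 0.25 log2 units of 0 at each age. The median change was -0.03, -0.08, -0.06 and 0.12 log2 units at days 1, 5, 10 and 20, beside 0.04, -0.01, -0.05 and 0.02 over all genes. Of the fold changes at day 20, 40 of 50 were positive, and the smallest adjusted p among them was 0.363. Without DMSO day 20 replicate 1, 20 of 50 were positive and the median was -0.04 log2 units. At day 20 unadjusted p was under 0.05 for 2 members, acs-2 and lbp-6, and DESeq2 also called 0.

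**Figure D2:**
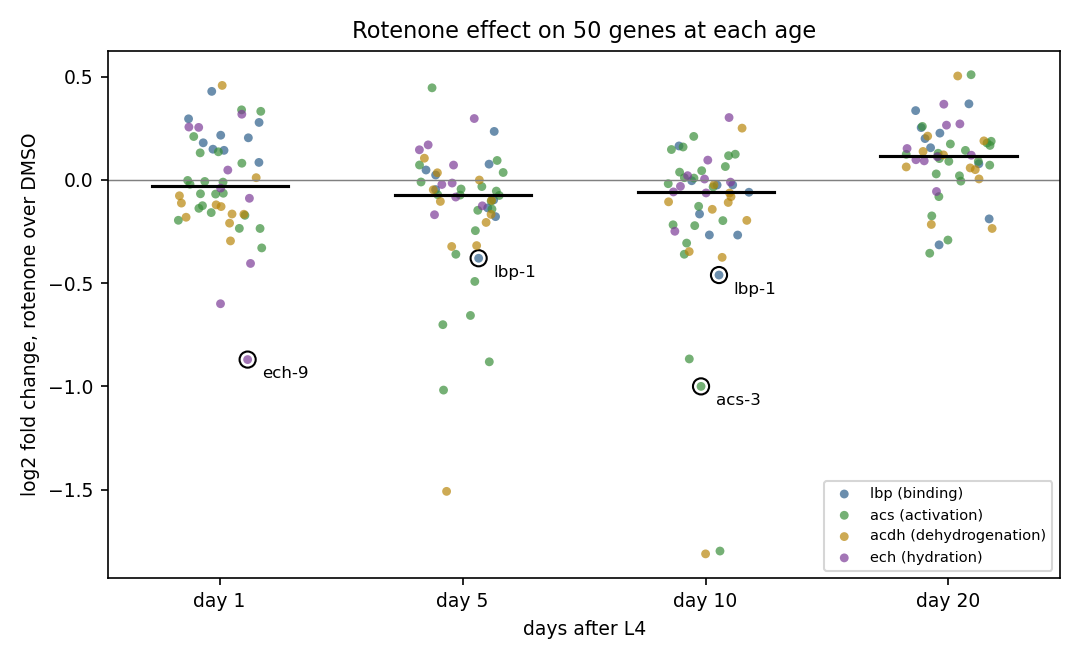
Log2 fold changes of rotenone over DMSO for the 50 genes at each day, coloured by family, with the median as a black bar and horizontal jitter for visibility. Circles mark genes with adjusted p under 0.05, which are ech-9 at day 1, lbp-1 at days 5 and 10 and acs-3 at day 10. The uncircled points below -1 belong to acdh-8 at days 5 and 10, acs-15 at day 5 and acs-18 at day 10.

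The day 1 gene was ech-9 (chromosome IV, 10233310 to 10235329), which resembles the bifunctional enzyme of peroxisomal beta-oxidation in mammals. It stood at 2.51, 2.59 and 1.98 CPM in rotenone worms and 4.39, 4.45 and 4.16 CPM in DMSO worms. The 3 rotenone libraries lay below the 3 DMSO libraries, and the log2 fold change was -0.87 ± 0.15 (SE, n = 3 per group, edgeR adjusted p = 0.00771). Without rotenone day 1 replicate 3, the lowest of the 6, the adjusted p was 0.074 and the log2 fold change -0.77. At day 5 ech-9 was at 1.25, 1.26 and 1.01 CPM with rotenone and 1.11, 1.41 and 1.34 CPM with DMSO, and these groups overlapped. The day 10 values were 4.7, 5.91 and 3.99 CPM with rotenone and 4.91, 6.22 and 6.1 CPM with DMSO, again overlapping. Rotenone effects on ech-9 at later ages were -0.13 ± 0.19, -0.25 ± 0.14 and 0.09 ± 0.29 log2 units at days 5, 10 and 20 (SE), and none passed. Across 16552 genes, day 1 rotenone fold changes had a Spearman correlation with exonic length of -0.536, so short genes tended to be higher with rotenone (-0.052 to 0.087 at the other ages). With that length trend removed ech-9 was at -0.85 log2 units with an adjusted p of 0.0054. Intestinal and germline markers were negative for 6 of 6 each at day 1, body wall muscle for 5 of 6 and epidermis for 4 of 6. Early embryo markers were positive for 6 of 7, sperm for 5 of 6 and neurons for 4 of 6. No marker passed at this age, and the part of these markers in the ech-9 result was not tested.

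Its neighbour ech-8 did not pass, with 15.8, 14.8 and 17.1 CPM in rotenone worms and 14.5, 12.5 and 12.9 CPM in DMSO worms at day 1. Its log2 fold change was 0.26 ± 0.15 (SE, adjusted p = 0.337).

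The lipid-binding protein gene lbp-1 (chromosome X, 3259142 to 3259812), whose product is predicted to be secreted, was lower with rotenone at days 5 and 10. At day 5 it stood at 40.3, 41.6 and 37.8 CPM in rotenone worms and 48.6, 54.8 and 52.3 CPM in DMSO worms. At day 10 it stood at 57.2, 64.2 and 61 CPM in rotenone worms and 90.2, 80.8 and 80.3 CPM in DMSO worms. The groups did not overlap at either age, and the log2 fold changes were -0.38 ± 0.08 at day 5 and -0.46 ± 0.08 at day 10 (SE, n = 3 per group). The adjusted p was 0.0345 at day 5 and 0.00725 at day 10. At day 1 lbp-1 had 158, 154 and 166 CPM in rotenone worms and 133, 131 and 149 CPM in DMSO worms, so here the rotenone libraries were the higher ones. The day 1 change, 0.22 ± 0.08 log2 units, did not pass (adjusted p = 0.207), and the day 20 change was -0.19 ± 0.10 log2 units with an adjusted p of 1. The rotenone effect on lbp-1 at day 5 minus that at day 1 was -0.60 ± 0.12 log2 units (SE, adjusted p = 0.0244). It was the only one of 50 members (2%) to pass this test of the difference, against 0.487% of all genes, 0.422% lower and 0.0654% higher. The day 5 call was lost when any 1 of 5 libraries was left out: rotenone replicates 1, 2 and 3 and DMSO replicates 2 and 3 (adjusted p up to 0.21). The day 10 call was lost without rotenone replicate 1 (adjusted p = 0.12) and in a fit of the day 10 libraries alone, where 0 of 14739 genes passed. With the length trend removed, the day 1 change of lbp-1 turned to -0.03 log2 units and the difference between days 1 and 5 became -0.33 log2 units (adjusted p = 0.46). That difference also missed the threshold without rotenone day 1 replicate 1 or 3, rotenone day 5 replicate 1 or 3, DMSO day 1 replicate 1 or 2, or DMSO day 5 replicate 2.

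The neighbours of lbp-1 did not pass at any age. At day 5, lbp-2 had 270, 299 and 273 CPM in rotenone worms and 305, 317 and 304 CPM in DMSO worms. At the same age lbp-3 had 22.6, 23.9 and 20.2 CPM with rotenone and 22.2, 22.4 and 21.1 CPM with DMSO. Those values overlapped in lbp-3, whose log2 fold change was 0.02 ± 0.11 (SE, adjusted p = 0.99). In lbp-2 each rotenone library lay below each DMSO library, with a change of -0.14 ± 0.18 log2 units (SE, adjusted p = 0.91). At day 10 the log2 fold changes were -0.17 ± 0.18 for lbp-2 and -0.27 ± 0.11 for lbp-3 (SE, adjusted p = 0.88 and 0.339). At day 1 all 9 lbp genes had positive fold changes, with a median of 0.20 log2 units, and none of them passed. These are short genes, and with the length trend removed 3 of 9 were positive, with a median of -0.05.

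The acyl-CoA synthetase gene acs-3 (chromosome V, 1969528 to 1974514), which in worms acts in the epidermis to limit fat uptake, was lower with rotenone at day 10. It stood at 2.01, 2.97 and 2.62 CPM in rotenone worms and 3.66, 6.12 and 5.27 CPM in DMSO worms. The 3 rotenone libraries lay below the 3 DMSO libraries, and the log2 fold change was -1.0 ± 0.21 (SE, n = 3 per group, adjusted p = 0.0159). At day 5 its 2.3, 1.75 and 1.9 CPM with rotenone lay below its 3.56, 2.74 and 3.36 CPM with DMSO, a log2 fold change of -0.66 ± 0.23 (SE) that did not pass (adjusted p = 0.283). The day 10 call was lost without DMSO replicate 2 or 3, without rotenone replicate 1 or 3, and in a fit of the day 10 libraries alone. The summed level of early embryo markers was lower with rotenone at the ages of the lbp-1 and acs-3 calls. At day 5 it was at most 13.9 CPM in each rotenone library and at least 18.9 CPM in each DMSO library. At day 10 that sum was 11.5 to 14 CPM with rotenone and 17.2 to 20.3 CPM with DMSO. Of 7 tested embryo markers 1 was lower with rotenone at day 5 (tbx-38) and 2 were lower at day 10 (tbx-37 and tbx-38). The list did not move as one: at day 5 fold changes were negative for 4 and positive for 3 of the 7 (end-1, end-3 and ceh-51), and at day 10 negative for 6 and positive for 1 (end-3). Other lists also leaned to one side, with no marker passing. Sperm markers were negative for 5 of 6 at both ages, and neuron markers for 5 of 6 at day 5 and 6 of 6 at day 10. Epidermis markers were positive for 6 of 6 at day 5 and 5 of 6 at day 10. Intestinal and germline markers were positive for 6 and 5 of 6 at day 10, and split evenly at day 5. The part of any of these markers in the lbp-1 and acs-3 results was not tested.

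**Figure D3:**
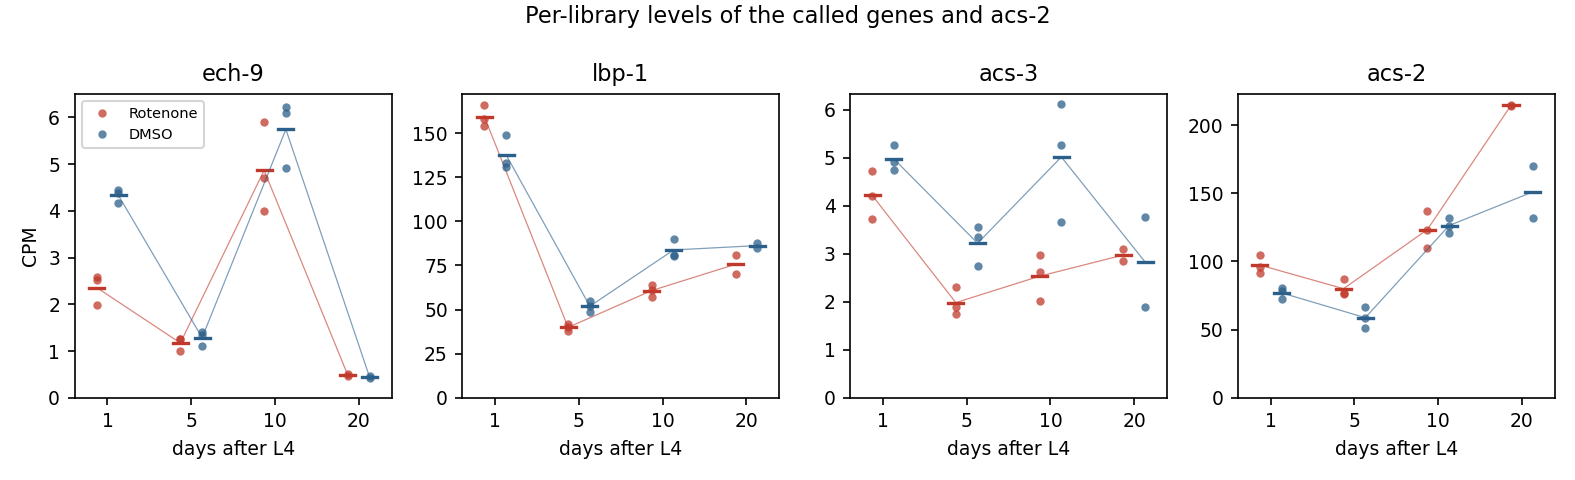
CPM of ech-9, lbp-1, acs-3 and acs-2 in each library at days 1, 5, 10 and 20, rotenone in red and left, DMSO in blue and right, with bars at the group means. Rotenone points lie below DMSO points for ech-9 at day 1, for lbp-1 at days 5, 10 and 20 and for acs-3 at days 1, 5 and 10, and above them for lbp-1 at day 1 and for acs-2 at days 1, 5 and 20.

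The mitochondrial acyl-CoA synthetase gene acs-2 (chromosome V, 15567394 to 15569897), a fasting-induced target of the nuclear receptor NHR-49, had the highest positive fold changes at days 5 and 20 among the members but did not pass. At day 1 it stood at 95.7, 91.4 and 105 CPM in rotenone worms and 78, 72.4 and 80.5 CPM in DMSO worms. The day 5 values were 76.4, 76.6 and 87.1 CPM with rotenone and 66.6, 51.5 and 58.2 CPM with DMSO. Every rotenone library lay above every DMSO library at both ages, with log2 fold changes of 0.34 ± 0.11 and 0.45 ± 0.11 (SE, adjusted p = 0.162 and 0.0645). The day 1 difference passed in 4 of 15 alternative analyses. At day 10 the groups overlapped, with 110, 137 and 123 CPM in rotenone worms and 121, 132 and 126 CPM in DMSO worms. The day 20 values were 215 and 214 CPM with rotenone and 132 and 170 CPM with DMSO, with an adjusted p of 0.363 (log2 fold change 0.51 ± 0.13, SE). The day 5 difference passed in 8 of 15, among them DESeq2 (adjusted p = 0.0077).

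The medium-chain acyl-CoA dehydrogenase genes acdh-7 and acdh-10, adjacent on X, were close to the threshold at day 10. The gene acdh-7 had 105, 128 and 124 CPM in rotenone worms and 151, 159 and 154 CPM in DMSO worms. The gene acdh-10 had 98.9, 126 and 125 CPM with rotenone and 139, 154 and 152 CPM with DMSO. In both genes each rotenone library lay below each DMSO library, and the log2 fold changes were -0.38 ± 0.10 for acdh-7 and -0.35 ± 0.10 for acdh-10 (SE, adjusted p = 0.0721 and 0.0989). With the replicate numbers as pairs, acdh-7 passed (log2 fold change -0.38, adjusted p = 0.032). Without DMSO day 10 replicate 1, the library that stood apart, 6 members were lower with rotenone at day 10: lbp-1, acs-3, acdh-7, acdh-10, acdh-8 and the very-long-chain dehydrogenase gene acdh-12. Those 6 are 12% of the members, and without that library 7.95% of all genes were lower and 6.32% higher. For acdh-12 the values were 117, 154 and 166 CPM with rotenone and 118, 192 and 191 CPM with DMSO, where the lowest DMSO value is that of replicate 1.

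None of the other members passed for rotenone at any age. For acs-22, which encodes a fatty acid transport protein homologue needed for the surface barrier, the log2 fold changes were -0.33 ± 0.10 at day 1 and -0.36 ± 0.10 at day 5 (SE, adjusted p = 0.14 and 0.123). At day 10 that of acs-22 was 0.21 ± 0.10 (SE), and the rotenone effect at day 10 minus that at day 5 was 0.57 ± 0.14 (SE, adjusted p = 0.0871). For that difference 0 of 50 members passed in edgeR, against 0.511% of all genes (0.47% higher and 0.0416% lower), with 4 at an unadjusted p under 0.05 and 1 called by DESeq2, which was acs-22. For the difference between days 20 and 10, 0 of 50 members and 0% of all genes passed, with 7 members at an unadjusted p under 0.05 and 0 in DESeq2. For ech-7 the rotenone libraries lay above the DMSO libraries at day 1, at 65.7, 73.9 and 68.6 CPM in rotenone worms against 54.3, 60.1 and 52.6 CPM in DMSO worms. Its log2 fold change at day 1 was 0.32 ± 0.10 (SE, adjusted p = 0.167). With 774 exonic bases in ech-7 and 2453 in acs-22, both day 1 changes lie in the direction of the length trend at that age. Their values with that trend removed are not given here.

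Age changes were asked in each treatment by comparing each age with the one before, and many more members passed than for rotenone. At day 5 against day 1, 9 members were higher and 26 lower in rotenone worms, which is 35 of 50 (70%), against 62.7% of all genes, 27.3% higher and 35.4% lower. In DMSO worms 9 were higher and 25 lower, which is 34 of 50 (68%), against 56% of all genes, 24.6% higher and 31.3% lower. The balance of all genes in this step depended on gene length. With the trend on exonic length removed, 35% were higher and 31.1% lower in rotenone worms, and 33.2% and 29.4% in DMSO worms. At day 10 against day 5, 4 were higher and 13 lower in rotenone worms (34%, against 22.8% of all genes, 11.2% higher and 11.6% lower). In DMSO worms 5 were higher and 13 lower (36%, against 25.7% of all genes, 13.7% higher and 12.1% lower). At day 20 against day 10, 16 were higher and 12 lower in rotenone worms (56%, against 49.5% of all genes, 28.2% higher and 21.2% lower). In DMSO worms 8 were higher and 17 lower (50%, against 45.6% of all genes, 23.3% higher and 22.3% lower). Of these steps 31, 12 and 20 members passed in both treatments (62%, 24% and 40%), beside 48.2%, 16.7% and 38.4% of all genes, and each of these members changed in the same direction in both. Across the 50 members the log2 changes of the treatments, which share no library, had a Pearson correlation of 0.977, 0.9 and 0.894 for the 3 steps, beside 0.891, 0.746 and 0.865 across all genes. The median change from day 1 to day 5 was -0.31 log2 units in both treatments, beside -0.12 over all genes in rotenone worms and -0.05 in DMSO worms.

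**Figure D4:**
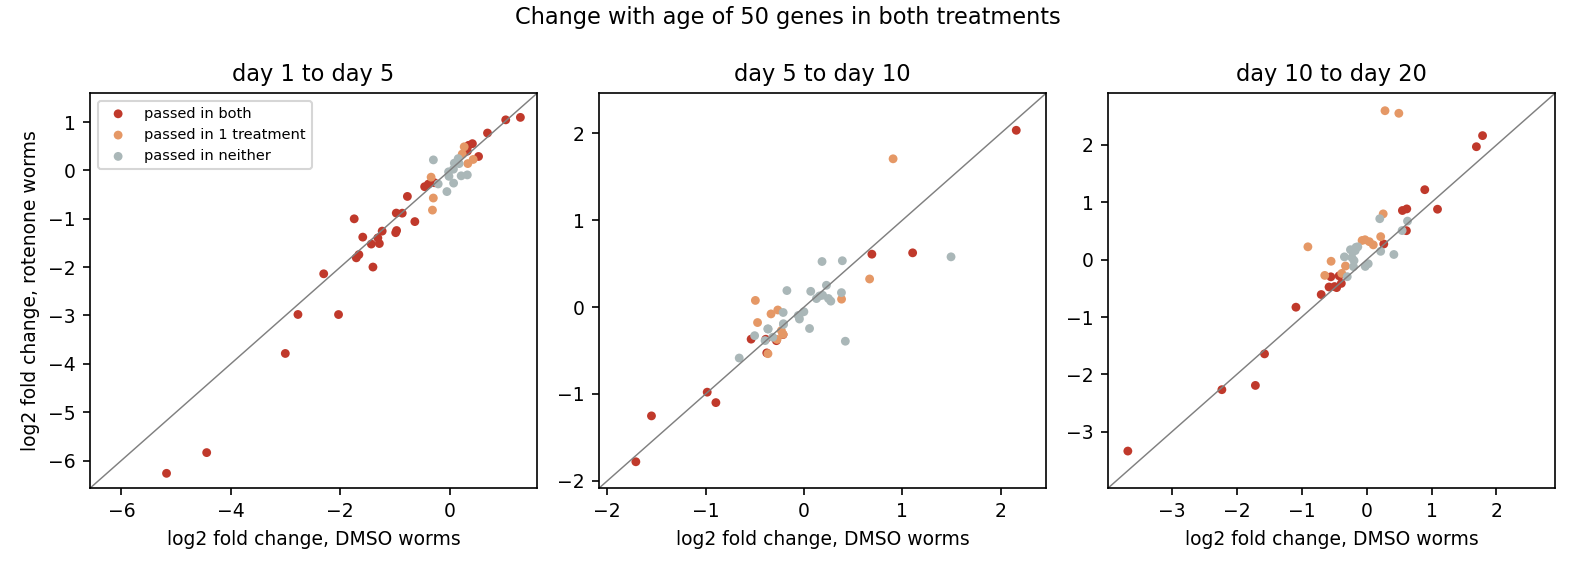
Log2 change of the 50 genes over each age step, DMSO worms on the horizontal axis and rotenone worms on the vertical axis, with the line of equal change in grey. Points lie along the line in each panel, and the genes that passed in both treatments (red) number 31, 12 and 20.

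Among the lipid-binding protein genes, 5 of 9 were lower and 1 higher at day 5 than at day 1 in each treatment. In this step 35.4% of all genes were lower and 27.3% higher in rotenone worms, and 31.3% and 24.6% in DMSO worms. With the length trend removed, the shares were 31.1% lower and 35% higher in rotenone worms, and 29.4% and 33.2% in DMSO worms. The lbp genes are short, and their counts with that trend removed are not given here. The median changes of the lbp genes were -1.24 log2 units in rotenone worms and -0.97 in DMSO worms. The abundant intracellular lbp-6 (chromosome I, 6728296 to 6729376) had 279, 302 and 324 CPM in rotenone worms and 273, 276 and 267 CPM in DMSO worms at day 1. By day 5 lbp-6 had fallen to 87.5, 84.7 and 86.2 CPM in rotenone worms and 81.1, 90.6 and 78.2 CPM in DMSO worms, all below the lowest day 1 library. The log2 changes were -1.81 ± 0.11 in rotenone worms and -1.71 ± 0.11 in DMSO worms (SE, adjusted p = 5.26e-11 and 9.68e-11). Also lower at day 5 were lbp-1 (-2.0 ± 0.09 in rotenone worms and -1.4 ± 0.08 in DMSO worms), lbp-5 (-1.51 ± 0.14 and -1.29 ± 0.14), lbp-3 (-1.24 ± 0.11 and -0.97 ± 0.11) and lbp-7 (-1.29 ± 0.17 and -0.99 ± 0.16). Of these, lbp-1 rose again at day 10, by 0.61 ± 0.08 log2 units in rotenone worms and 0.69 ± 0.08 in DMSO worms (SE). Its rise of 0.31 ± 0.09 log2 units from day 10 to day 20 in rotenone worms was lost without rotenone day 20 replicate 2. Likewise the rise of lbp-6 in that step (0.35 ± 0.12 log2 units) was lost without rotenone day 20 replicate 1 or 2 or day 10 replicate 1.

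The gene lbp-8 (chromosome V, 13890679 to 13891364), whose product carries lipid signals out of lysosomes to the nucleus in the worm intestine, peaked at day 5. It had 5.11, 3.6 and 4.19 CPM in rotenone worms and 3.61, 3.05 and 2.81 CPM in DMSO worms at day 1. At day 5 it had 8.42, 10.3 and 8.73 CPM with rotenone and 8.2, 6.55 and 8.59 CPM with DMSO. Every day 5 library exceeded every day 1 library of its treatment, and the log2 change was 1.1 ± 0.21 in rotenone worms and 1.29 ± 0.21 in DMSO worms (SE). At day 10 lbp-8 had fallen to 2.54, 2.51 and 2.9 CPM with rotenone and 3.36, 1.84 and 2.1 CPM with DMSO. At day 20 its levels were 0.38 and 0.891 CPM in rotenone worms and 0.655 and 0.827 CPM in DMSO worms, the lowest of the 4 ages. The last step was -2.19 ± 0.30 log2 units in rotenone worms and -1.71 ± 0.31 in DMSO worms (SE, adjusted p = 6.97e-06 and 0.000151). The gene lbp-9 passed in neither earlier step and was lower at day 20. It averaged 246 ± 14.5 CPM in rotenone worms and 214 ± 29.7 CPM in DMSO worms at day 20 (SD, n = 2), against 437 ± 55.9 and 456 ± 61.6 CPM at day 10 (SD, n = 3). The log2 change of lbp-9 in that step was -0.83 ± 0.16 in rotenone worms and -1.09 ± 0.16 in DMSO worms (SE). Another late fall was that of lbp-4, by 0.48 log2 units in rotenone worms and by 0.58 in DMSO worms, the second of which was lost without DMSO day 20 replicate 1. No age step passed for lbp-2 in either treatment.

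Among the 21 synthetase genes, 6 were higher and 10 lower at day 5 than at day 1 in rotenone worms, and 5 higher and 10 lower in DMSO worms. Over all genes these shares were 27.3% higher and 35.4% lower in rotenone worms, and 24.6% and 31.3% in DMSO worms. The largest rise was in acs-20 (chromosome IV, 12392121 to 12398706), which with acs-22 belongs to the fatty acid transport protein group. It had 13.7, 12.5 and 13.1 CPM in rotenone worms and 15.4, 12.7 and 12.9 CPM in DMSO worms at day 1. At day 5 it had 27.3, 26.4 and 27.2 CPM with rotenone and 26, 26.6 and 30.8 CPM with DMSO. No day 1 library reached a day 5 library, and the log2 change was 1.05 ± 0.10 in rotenone worms and 1.02 ± 0.10 in DMSO worms (SE). From day 5 to day 10 the change of acs-20 was -0.37 ± 0.10 log2 units with rotenone and -0.54 ± 0.10 with DMSO (SE), and the rotenone call was lost without rotenone day 10 replicate 1. Smaller rises at day 5 were those of acs-11 (0.77 ± 0.11 log2 units in rotenone worms and 0.69 ± 0.11 in DMSO worms, SE), acs-13 (0.55 ± 0.10 and 0.41 ± 0.10) and acs-12 (0.29 ± 0.09 and 0.53 ± 0.09). The acetyl-CoA synthetase gene acs-19 also rose, by 0.52 ± 0.10 log2 units in rotenone worms and 0.35 ± 0.10 in DMSO worms (SE).

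The steepest falls at day 5 were in genes of low abundance. The gene acs-18 had 182 counts over the 3 rotenone libraries and 186 over the 3 DMSO libraries at day 1, and 2 and 4 counts at day 5. Scaled to library size, its day 1 level was 88.3 times its day 5 level in rotenone worms (exact 95% counting interval 24.1 to 734) and 39.2 times in DMSO worms (15.1 to 145). These intervals cover counting error only. The medium-chain dehydrogenase gene acdh-8 averaged 0.0543 ± 0.0195 CPM in rotenone worms and 0.151 ± 0.0244 CPM in DMSO worms at day 5, against 3.15 ± 0.751 and 3.4 ± 0.715 CPM at day 1 (SD, n = 3). Its log2 change was -5.84 ± 0.47 in rotenone worms and -4.44 ± 0.38 in DMSO worms (SE). In 3 further genes, acs-10 (-3.79 ± 0.29 and -3.0 ± 0.26), acs-6 (-2.98 ± 0.24 and -2.77 ± 0.23) and acs-15 (-2.98 ± 0.38 and -2.03 ± 0.31) levels also fell, with the log2 change in rotenone worms before that in DMSO worms. Summed sperm markers were at 2.98 to 3.84 CPM in rotenone worms and 2.97 to 3.75 CPM in DMSO worms at day 5, against 11.2 to 14.2 and 10.2 to 12 CPM at day 1. Of 6 sperm markers 4 were lower and 1 higher at day 5 in each treatment. Other lists fell too, with 6 of 6 body wall muscle, 5 of 6 intestinal and 4 of 6 epidermis markers lower at day 5 in each treatment. Germline markers were higher for 4 of 6 in rotenone worms and 3 of 6 in DMSO worms. The part of sperm or of any other tissue in the falls of acs-18, acdh-8, acs-10, acs-6 and acs-15 was not tested. From day 5 to day 10 acs-15 rose in rotenone worms by 1.71 ± 0.42 log2 units, a call lost without rotenone day 5 replicate 1. In DMSO worms acs-15 went from a mean of 0.135 CPM to 0.283 CPM, which did not pass. From day 10 to day 20 acs-10 rose by 1.97 ± 0.28 log2 units in rotenone worms and 1.69 ± 0.29 in DMSO worms (SE). The sperm marker sum was 8.75 to 9.78 CPM with rotenone and 9.17 to 9.21 CPM with DMSO at day 20, against 4.4 to 5.89 and 4.81 to 6.6 CPM at day 10. Neuron markers were positive for 6 of 6 over the same step in each treatment. Intestinal, body wall muscle and epidermis markers were positive for 2 of 6 each, and germline markers for 1 of 6. The part of these markers in the acs-10 rise was not tested. In that step acdh-8 and acs-18 passed in rotenone worms on 30 and 18 counts at day 20, with adjusted p of 0.00324 and 0.0292. Both calls were lost when 1 library was left out, rotenone day 20 replicate 1 for acdh-8, and rotenone day 20 replicate 2 or day 10 replicate 2 or 3 for acs-18.

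Several other synthetase genes changed late. The gene acs-7 (chromosome II, 9292017 to 9294033), which acts in peroxisomal ascaroside production, fell and then recovered. It had 17.4, 17 and 18.8 CPM in rotenone worms and 20.9, 16.5 and 16.7 CPM in DMSO worms at day 1. At day 10 it had 2.33, 2.39 and 2.69 CPM with rotenone and 3.07, 3.24 and 2.86 CPM with DMSO, each below every day 1 and day 5 library. At day 20 it was back at 10.3 and 12 CPM with rotenone and 7.72 and 13.6 CPM with DMSO. The last step was 2.16 ± 0.18 log2 units in rotenone worms and 1.79 ± 0.18 in DMSO worms (SE, adjusted p = 6.99e-09 and 1.49e-07). The gene acs-1 (chromosome V, 6524989 to 6532089), which activates branched-chain fatty acids needed for growth, fell in the last step. It had 129, 127 and 132 CPM in rotenone worms and 95.2, 130 and 122 CPM in DMSO worms at day 10. At day 20 it had 39.4 and 43.5 CPM with rotenone and 35.1 and 42.9 CPM with DMSO, under every day 10 library, and the log2 change was -1.64 ± 0.12 and -1.57 ± 0.12 in rotenone and DMSO worms (SE). The gene acs-2 had changes of -0.28 ± 0.11 log2 units with rotenone and -0.39 ± 0.11 with DMSO at day 5, of which the rotenone call was lost without rotenone day 1 replicate 1 or 3 or day 5 replicate 1 or 2. It rose at day 10, by 0.62 ± 0.11 log2 units in rotenone worms and 1.1 ± 0.11 in DMSO worms (SE). From day 10 to day 20 acs-2 rose in rotenone worms (0.80 ± 0.12 log2 units, adjusted p = 2.04e-05) and had a change of 0.26 ± 0.12 log2 units in DMSO worms (adjusted p = 0.0931). The rotenone effect on acs-2 at day 20 minus that at day 10 was 0.54 ± 0.17 log2 units (SE, adjusted p = 0.709), so a difference between the treatments in this step was not shown. The gene acs-16 rose at day 20, by 1.22 ± 0.14 log2 units in rotenone worms and 0.90 ± 0.14 in DMSO worms (SE). Smaller late rises were those of acs-17 (0.86 ± 0.19 and 0.55 ± 0.19 in rotenone and DMSO worms) and, in rotenone worms, acs-11 (0.40 ± 0.12). In DMSO worms acs-11 went from a mean of 96.8 CPM at day 10 to 113 CPM at day 20, which did not pass. A difference between the treatments was not shown for acs-11.

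Further synthetase genes also changed with age. At day 5 acs-5 was lower, with log2 changes of -1.4 ± 0.09 in rotenone worms and -1.31 ± 0.09 in DMSO worms, and acs-14 of -0.88 ± 0.12 and -0.87 ± 0.12 (SE). The long-chain gene acs-4 was higher at day 5 in rotenone worms (0.49 ± 0.13 log2 units). In DMSO worms acs-4 went from a mean of 586 CPM to 704 CPM, which did not pass, and a difference between the treatments was not shown. It was lower at day 10 than at day 5 in both treatments (-0.37 ± 0.13 log2 units in rotenone worms and -0.39 ± 0.13 in DMSO worms, SE). The rotenone call at day 10 was lost without any 1 of the 6 rotenone libraries of days 5 and 10, and the DMSO call without DMSO day 5 replicate 1 or 3 or day 10 replicate 1. The transport protein gene acs-22 passed in 1 step only, a fall from day 5 to day 10 in DMSO worms of -0.49 ± 0.10 log2 units, beside 0.08 ± 0.10 in rotenone worms (SE). In rotenone worms acs-3 fell at day 5 (-1.06 ± 0.23 log2 units, SE). In DMSO worms it fell, rose and fell over the 3 steps (-0.64 ± 0.21, 0.67 ± 0.21 and -0.90 ± 0.24 log2 units, SE). Each of these 3 DMSO calls was lost with 1 library left out: DMSO day 5 replicate 2 for the first, day 5 replicate 2 or 3 or day 10 replicate 2 or 3 for the second, and day 20 replicate 1 for the last. No step passed for acs-21 or acs-9.

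**Figure D5:**
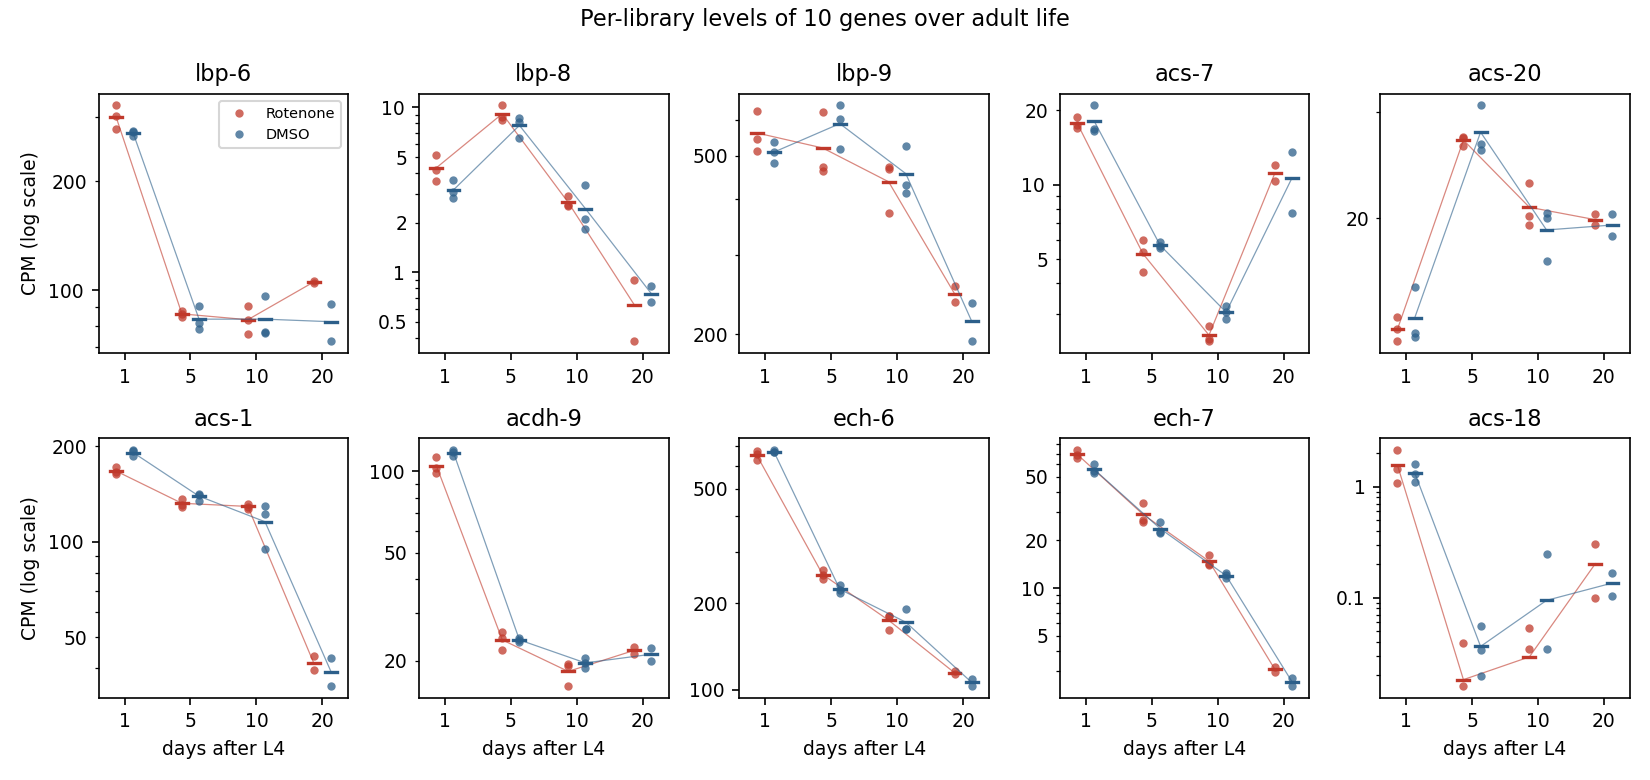
CPM of 10 genes in each library at days 1, 5, 10 and 20 on log axes, rotenone in red and left, DMSO in blue and right, with bars at group means. Libraries at 0 CPM for acs-18 (1 rotenone library at day 5, and 1 library of each treatment at day 10) cannot be drawn on this axis but are in the means. The trajectories of lbp-8, acs-7, acs-20 and ech-7 run side by side in the treatments.

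Of 11 acdh genes, 2 were higher and 5 lower at day 5 than at day 1 in rotenone worms, and 3 higher and 5 lower in DMSO worms. Of all genes, 27.3% were higher and 35.4% lower in this step in rotenone worms, and 24.6% and 31.3% in DMSO worms. The gene acdh-9, which resembles the isobutyryl-CoA dehydrogenase of valine breakdown in mammals, fell at day 5. It had 103, 113 and 99 CPM in rotenone worms and 114, 120 and 118 CPM in DMSO worms at day 1. At day 5 acdh-9 had 25.4, 24.2 and 21.9 CPM with rotenone and 24.3, 23.4 and 23.8 CPM with DMSO, and all later libraries were between 16.1 and 22.4 CPM. The log2 change to day 5 was -2.14 ± 0.09 in rotenone worms and -2.30 ± 0.09 in DMSO worms (SE, adjusted p = 3.46e-13 and 1.28e-13). By contrast, acdh-11, which in worms limits a lipid signal that drives membrane adaptation to heat, rose at day 5, by 0.40 ± 0.10 log2 units in rotenone worms and 0.32 ± 0.10 in DMSO worms (SE). The very-long-chain gene acdh-12 passed in no age step in either treatment, with changes of 0.24 ± 0.15 with rotenone and 0.16 ± 0.15 with DMSO to day 5 (SE). The gene acdh-6 fell from day 5 to day 10, with log2 changes of -1.25 ± 0.30 in rotenone worms and -1.55 ± 0.32 in DMSO worms (SE), and the rotenone call was lost without rotenone day 5 replicate 1. The genes acdh-5 and acdh-4 fell at day 5 and rose at day 20. The log2 changes of acdh-5 in the last step were 0.88 ± 0.21 with rotenone and 1.09 ± 0.22 with DMSO (SE), and those of acdh-4 0.51 ± 0.21 and 0.61 ± 0.21. The acdh-4 calls at day 20 were lost without any 1 of 4 libraries in each treatment, rotenone day 10 replicate 1 or 3 and DMSO day 10 replicate 2 or 3, and day 20 replicate 1 or 2 of each. At day 5 acdh-7 (0.43 ± 0.10 log2 units) and acdh-10 (0.33 ± 0.10) rose in DMSO worms, beside 0.23 ± 0.10 and 0.14 ± 0.10 in rotenone worms, which did not pass.

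No hydratase gene passed as higher at day 5 than at day 1, though fold changes were positive for 2 of 9 in rotenone worms and 1 of 9 in DMSO worms. Of 9 ech genes 6 were lower in rotenone worms and 5 in DMSO worms, beside 35.4% and 31.3% of all genes. The shares of all genes higher were 27.3% and 24.6%. The gene ech-6 (chromosome III, 9751552 to 9752883) was at 626, 659 and 675 CPM in rotenone worms and 668, 667 and 681 CPM in DMSO worms at day 1. At day 5 it was at 250, 261 and 243 CPM with rotenone and 217, 222 and 231 CPM with DMSO. At day 20 it was at 113 and 116 CPM with rotenone and 103 and 109 CPM with DMSO, below every earlier library. The gene passed as lower in all 3 steps in both treatments, and the log2 change to day 5 was -1.38 ± 0.08 with rotenone and -1.59 ± 0.08 with DMSO (SE). Also lower at each step in both treatments were ech-7 and ech-2, while acs-1 and acs-5 were so in DMSO worms. The smallest of these steps, ech-2 from day 5 to day 10 in DMSO worms (-0.21 ± 0.08 log2 units, adjusted p = 0.044), was lost when any 1 of 5 libraries was left out, DMSO day 5 replicates 1, 2 and 3 and day 10 replicates 2 and 3.

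The gene ech-7 (chromosome I, 14367616 to 14369773) fell the farthest among these. It was at 65.7, 73.9 and 68.6 CPM in rotenone worms and 54.3, 60.1 and 52.6 CPM in DMSO worms at day 1. At day 10 it was at 13.9, 16.2 and 14.2 CPM with rotenone and 12.4, 12 and 11.5 CPM with DMSO. At day 20 only 2.97 and 3.18 CPM remained with rotenone and 2.42 and 2.72 CPM with DMSO. Its day 1 mean was 22.6 times its day 20 mean in rotenone worms and 21.7 times in DMSO worms. The last step alone was -2.27 ± 0.14 log2 units in rotenone worms and -2.23 ± 0.14 in DMSO worms (SE, adjusted p = 6.74e-11 and 1.65e-10).

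The peroxisomal-type gene ech-9 had another course, with low levels at days 5 and 20 and high levels at days 1 and 10. From the values given above for days 1, 5 and 10 it fell to 0.465 and 0.501 CPM in rotenone worms and 0.47 and 0.414 CPM in DMSO worms at day 20. Its steps were -1.0 ± 0.17, 2.03 ± 0.16 and -3.34 ± 0.21 log2 units in rotenone worms (SE). In DMSO worms they were -1.75 ± 0.16, 2.16 ± 0.16 and -3.68 ± 0.22 log2 units (SE), and all 6 passed. Its neighbour ech-8 moved less, with 8.96 ± 0.971 CPM in rotenone worms and 8.44 ± 2 CPM in DMSO worms at day 10 (SD, n = 3), against 10.7 ± 1.17 and 10.8 ± 1.08 CPM at day 5. The trifunctional protein alpha subunit gene ech-1 fell at day 5 (-0.54 ± 0.18 log2 units with rotenone and -0.77 ± 0.18 with DMSO, SE) and rose at day 20 (0.89 ± 0.19 and 0.62 ± 0.20). The call at day 5 in rotenone worms was lost without rotenone day 1 replicate 3, and that at day 20 in DMSO worms without DMSO day 20 replicate 2.

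Tissue markers changed over the same ages. Summed intestinal markers were at 721 to 813 CPM in rotenone worms and 929 to 948 CPM in DMSO worms at day 1. At day 20 they were at 160 to 163 CPM with rotenone and 121 to 146 CPM with DMSO. At day 5, 5 of 6 intestinal markers were lower and 1 higher in each treatment, and 6 of 6 body wall muscle markers were lower in each. Germline and oocyte markers went the other way, with 4 of 6 higher in rotenone worms and 3 of 6 in DMSO worms at day 5 and none lower. Their summed level was 5668 to 6570 CPM in rotenone worms and 5481 to 6816 CPM in DMSO worms at day 5, against 4065 to 4300 and 4876 to 5158 CPM at day 1. At day 20 it was 3654 to 3875 CPM with rotenone and 3256 to 3334 CPM with DMSO, and 3 and 4 of the 6 were lower than at day 10. Of 6 epidermis markers 4 were lower at day 5 in each treatment, with 2 higher in rotenone worms and 1 in DMSO worms. Neuron markers were lower for 3 of 6 in rotenone worms and 1 of 6 in DMSO worms at day 5, with 1 higher in each. From day 10 to day 20, 5 of 6 neuron markers were higher with rotenone and 4 of 6 with DMSO, and 0 lower. Whether such shifts in tissue RNA have a part in the age changes of the members was not tested.

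Of the members 29 of 50 had their highest group mean at day 1 in rotenone worms and 24 of 50 in DMSO worms. Day 5 held the highest mean of 10 members with rotenone and 13 with DMSO. Day 10 held 2 with rotenone and 5 with DMSO, and day 20 held 9 with rotenone and 8 with DMSO. For ech-3 the highest group mean was 1.09 times the lowest in rotenone worms and 1.21 times in DMSO worms, the narrowest range of the 50. Members that passed in no step numbered 8 in rotenone worms and 7 in DMSO worms. Both sets held acdh-12, acs-9, acs-21, ech-3, ech-5 and lbp-2. The shares of all genes with their highest mean at each day, or passing in no step, were not computed. These counts therefore only describe the members.

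Genes that act before and after the members on the same routes were taken from 5 lists. The carnitine palmitoyltransferases, which bring activated fatty acids into mitochondria, included both rotenone calls outside the members. At day 5 cpt-3 had 1.15, 0.763 and 1.09 CPM in rotenone worms and 2.42, 2.84 and 2.01 CPM in DMSO worms, with no overlap and an adjusted p of 0.00668 (log2 fold change -1.25 ± 0.22, SE). That call was lost without rotenone day 5 replicate 2, the library high in ribosomal RNA, and without DMSO day 5 replicate 2. At day 10 cpt-6 had 24.1, 28.7 and 29.3 CPM in rotenone worms and 30.8, 42.2 and 40.4 CPM in DMSO worms, with an adjusted p of 0.0486 (log2 fold change -0.47 ± 0.11, SE), a call that was lost in 8 of 14 alternatives, with rotenone replicate 1, 2 or 3 or DMSO replicate 2 or 3 left out among them. No gene passed for rotenone at any age among 11 mitochondrial hydroxyacyl-CoA dehydrogenase, thiolase and electron transfer flavoprotein genes, 3 dienoyl-CoA reductase genes, 13 peroxisomal genes and 8 regulators. At day 20 all 13 peroxisomal genes had positive fold changes for rotenone, with a median of 0.28 log2 units beside 0.02 over all genes, and none of them passed. In all 13 DMSO day 20 replicate 1 was the lowest of the 4 libraries, and without it 4 of 13 were positive, with a median of -0.02. For dhs-28 the values were 76.9 and 84 CPM with rotenone and 54.9 and 81.2 CPM with DMSO. Intestinal, body wall muscle and germline markers had medians of 0.28, 0.27 and 0.20 log2 units at day 20, with 6 of 6 positive in each list. Sperm markers were positive for 5 of 6, epidermis for 4 of 6, neurons for 2 of 6 and early embryo for 3 of 7. The part of these markers was not tested. Over these 35 genes unadjusted p was under 0.05 for 9, 1, 1 and 3 at days 1, 5, 10 and 20, and DESeq2 called 1, 1, 0 and 0.

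With age, cpt-3 rose at day 5 and again at day 10, when it was at 11.6, 13.1 and 14.5 CPM in rotenone worms and 13.9, 19.9 and 17.3 CPM in DMSO worms. The step to day 10 was 3.67 ± 0.21 log2 units with rotenone and 2.80 ± 0.18 with DMSO (SE). The gene cpt-1 rose at day 5, by 0.71 ± 0.11 log2 units in rotenone worms and 0.46 ± 0.11 in DMSO worms (SE). The gene cpt-5 fell in every step, with log2 changes of -1.06 ± 0.12 with rotenone and -1.32 ± 0.12 with DMSO in the last one (SE), and cpt-4 rose in that step by 1.36 ± 0.17 and 0.85 ± 0.17. Of the 6 genes of this list, 3 were higher and 2 lower at day 5 in each treatment. Beside them, 27.3% of all genes were higher and 35.4% lower in rotenone worms, and 24.6% and 31.3% in DMSO worms.

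Of the 11 mitochondrial genes that complete the round, 1 was higher and 6 lower at day 5 in each treatment. Over all genes 27.3% were higher and 35.4% lower in rotenone worms, and 24.6% and 31.3% in DMSO worms. The higher one on this list was the hydroxyacyl-CoA dehydrogenase gene hacd-1, with 105, 100 and 95.9 CPM in rotenone worms and 122, 118 and 96.5 CPM in DMSO worms at day 5, against 54.8, 60.1 and 52.1 CPM in rotenone worms and 52.6, 57.4 and 49.8 CPM in DMSO worms at day 1. By day 20 hacd-1 had dropped to 28.2 and 26.5 CPM with rotenone and 17.7 and 21.7 CPM with DMSO, a step of -1.69 ± 0.13 and -1.94 ± 0.13 log2 units from day 10 (SE). The thiolase gene kat-1 fell at day 5, with log2 changes of -0.85 ± 0.13 with rotenone and -0.94 ± 0.13 with DMSO (SE), as did T02G5.4 of the same list (-1.37 ± 0.10 and -1.46 ± 0.10). All 3 dienoyl-CoA reductase genes, which serve the oxidation of unsaturated fatty acids, fell at day 5. Their medians were -3.35 log2 units in rotenone worms and -2.13 in DMSO worms, set by genes of very low level. At day 5 W01C9.4 averaged 0.0726 CPM with rotenone and 0.118 CPM with DMSO, and T05C12.3 0.0419 and 0.103 CPM. The abundant F53C11.3 (now decr-1.1) went only from 94 to 71.6 CPM with rotenone and from 83.1 to 71.3 CPM with DMSO. Its DMSO call was lost without DMSO replicate 1 or 3 of day 1 or of day 5. In W01C9.4, now decr-1.2, the log2 changes were -3.34 ± 0.42 in rotenone worms and -2.48 ± 0.38 in DMSO worms (SE).

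On the peroxisomal list, 6 of 13 genes were lower and 1 higher from day 1 to day 5 in rotenone worms (beside 35.4% of all genes lower and 27.3% higher), and 8 lower and 1 higher in DMSO worms (beside 31.3% and 24.6%). From day 5 to day 10, 7 were lower in rotenone worms and 8 in DMSO worms, and none higher, beside 11.6% and 12.1% of all genes lower. From day 10 to day 20, 8 were higher and 3 lower in rotenone worms, and 6 higher and 3 lower in DMSO worms, beside 28.2% and 23.3% of all genes higher, with medians of 0.58 and 0.34 log2 units beside 0.12 and 0.02 over all genes. The thiolase gene daf-22, the last enzyme of ascaroside side chain shortening, was at 41.8 and 41.3 CPM with rotenone and 31.3 and 41.8 CPM with DMSO at day 20, against 25.4, 29.4 and 28.5 CPM with rotenone and 29.6, 29.4 and 27.2 CPM with DMSO at day 10. The DMSO rise of daf-22 was lost without DMSO day 10 replicate 3 or day 20 replicate 2. Acyl-CoA oxidase genes, which open the peroxisomal round, differed: C48B4.1 (now acox-1.5) fell in that step, with log2 changes of -2.44 ± 0.15 with rotenone and -2.36 ± 0.15 with DMSO (SE). F08A8.2 (now acox-1.2) rose at day 5 to 44.9, 38.7 and 39.9 CPM in rotenone worms and 29.8, 28.5 and 29.1 CPM in DMSO worms, against 12.1, 10.8 and 8.83 CPM in rotenone worms and 12.5, 13.6 and 13.8 CPM in DMSO worms at day 1. F08A8.3 (now acox-1.3) fell at day 5, with log2 changes of -3.20 ± 0.20 in rotenone worms and -4.02 ± 0.20 in DMSO worms (SE). Of the 8 regulators, 4 were higher and 2 lower at day 5 in each treatment, beside the shares of all genes given above for the step from day 1 to day 5. The nuclear receptor gene nhr-66 was among the higher ones, by 0.79 ± 0.11 log2 units in rotenone worms and 0.49 ± 0.11 in DMSO worms (SE). The lower ones were nhr-80, at -0.60 ± 0.10 and -0.59 ± 0.10, and hlh-30, a regulator of lysosomal lipid breakdown, at -0.63 ± 0.13 and -0.42 ± 0.12 in rotenone and DMSO worms. By day 20 hlh-30 had risen to 92.6 and 75.1 CPM with rotenone and 85.8 and 82.9 CPM with DMSO, above every earlier library, a step that did not pass in either treatment with the length trend removed.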

How the data were processed

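Per the labels' protocols, RNA was extracted with QIAzol from whole worms grown on NGM agar, and libraries were made with a TruSeq RNA kit, which does not mark strand. Genome build WBcel235, HTSeq and TopHat 1.4.1 are listed in the submitters' processing notes. The authors deposited raw counts per gene in 1 table of 22 libraries. Treatment of reads that match several places is not given in the sources used here. The authors also deposited RPKM values. They were used only to compare the gene lengths they imply with annotated exonic lengths, and since these disagree for many genes no level was taken from them.

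Counts were tested with edgeR 4.0.16 (R 4.3.3) in 1 fit of the 8 groups, so that all libraries share 1 estimate of the spread (TMM scaling, filterByExpr, quasi-likelihood test, Benjamini-Hochberg adjustment over 16822 genes, threshold 0.05). SE is the absolute log2 fold change divided by the square root of F. CPM were computed from each library's total over tested genes, scaled by TMM. The contrasts were rotenone over DMSO at 4 ages, 3 age steps per treatment and 3 differences of the rotenone effect between ages. The script was tested on simulated counts. Coordinates, overlaps and exonic lengths came from the WBcel235 annotation, with current names from RefSeq.

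All members are counted. Named with values are up to 6 members per direction in each rotenone comparison, up to 4 per direction in each age step and each difference, a fixed set of well-studied members, the leading member per exonic length, and up to 2 genes per pathway list and comparison. Further genes were named after their values were seen, among them acs-3 at other ages, the smaller age changes, and the counting ratios of acs-18 and acdh-8. The members, gene lists and markers were chosen with earlier results of these data known.

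Deviations of same-numbered rotenone and DMSO libraries from their group means correlated at 0.429, 0.217 and 0.157 at day 10, where the numbers were taken as pairs. The sample titles name no pairs. At that age rotenone replicate 3 with DMSO replicate 2 reached 0.237, and rotenone replicate 2 with DMSO replicate 3 reached 0.171. The pairing is therefore uncertain. At the other ages the correlations were 0.033 to 0.165 and the numbers were not taken as pairs. The fit above has no such term, and the paired fit is an alternative beside RLE scaling, other filters, DESeq2 1.42.0, removal of the length trend, a fit restricted to the groups compared, and leaving out each library.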

Additional observations from a re-analysis of the deposited data

Results flagged for a closer look

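The lipid-binding protein gene lbp-1 responded to rotenone in a different way at day 5 than at day 1. The rotenone effect at day 5 minus that at day 1 was -0.60 ± 0.12 log2 units (SE, edgeR adjusted p = 0.0244), from a test of the difference itself. All 3 rotenone libraries were above the DMSO libraries at day 1 and below them at day 5. The call was lost in 9 of 21 alternatives, and with the trend of day 1 fold changes on gene length removed the difference was -0.33 log2 units (adjusted p = 0.46). The summed level of early embryo markers at day 5 was at most 13.9 CPM in each rotenone library and at least 18.9 CPM in each DMSO library. Of 7 tested markers 1 was lower, 4 had negative and 3 positive fold changes. At that age sperm and neuron markers were also negative for 5 of 6 each, and epidermis markers positive for 6 of 6. The part of these markers in the lbp-1 result was not tested.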

How the results depend on the processing

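Of the 157 age-step calls of members, 101 held in every alternative and 56 were lost in at least 1. None of the 4 rotenone calls, and not the 1 difference between ages, held in all of them. At day 1, against 1 member called, there were 2 without a count filter, 2 with the length trend removed, 20 in a fit of only these groups and 10 with DMSO day 10 replicate 1 left out of the shared spread. At day 5, against 1, there were 2 with RLE factors, with a mean of at least 50 counts, with the length trend removed and in DESeq2, and 3 without a filter and with that DMSO library left out of the shared spread. At day 10, against 2, there were 1 without a filter, 4 in DESeq2 and 0 when only these groups were fitted. The fit of only the groups compared gave 8 members against 18 from day 5 to 10 and 10 against 25 from day 10 to 20 in DMSO worms, and a mean of at least 50 counts gave 10 against 17 from day 5 to 10 in rotenone worms. For the difference of day 5 minus day 1 the count, 1, became 0 without a filter and with the length trend removed, and 4 in the fit of only these groups. For day 10 minus day 5 it was 1 with a mean of at least 50 counts, with the length trend removed and in DESeq2, against 0, and for day 20 minus day 10 it was 1 without a filter, against 0. The cause was not tested.

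Leaving out 1 library gave 0 to 1, 0 to 2, 0 to 6 and 0 to 1 members for rotenone at days 1, 5, 10 and 20. It gave 33 to 35, 11 to 17 and 18 to 25 in the steps of rotenone worms, 33 to 34, 14 to 20 and 18 to 29 in those of DMSO worms, and 0 to 1, 0 to 1 and 0 to 2 for the differences. With the replicate block within each day 7, 2, 3 and 0 members were called for rotenone, and with the replicate block over all days 1, 1, 2 and 0. At day 10, where the numbers were taken as pairs, the block added acdh-7.

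Signs turned with the length trend removed for acs-13 (0.03), lbp-1 (-0.03), acox-1 (0.00), nhr-66 (0.13) and aak-2 (0.01) under rotenone at day 1, and for nhr-66 in the difference of day 5 minus day 1 (-0.03). With 1 library left out, lbp-2 ran from -0.27 to 0.95 at day 20 and from -0.15 to 1.06 in the difference of day 20 minus day 10, the low values without DMSO day 20 replicate 1. Likewise F53A2.7 ran from -0.37 to 0.03 at day 10, the high value without rotenone replicate 1. None of these passed in the fit of all libraries.

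Over all genes, 109 were called for rotenone at day 1, against 327 in DESeq2, 1822 without a filter, 2075 with the block within each day, 3082 with DMSO day 10 replicate 1 left out of the shared spread and 5010 in the fit of only these groups. At day 5 the counts were 148, and 227 in DESeq2, 308 with that library left out and 339 without a filter. At day 10 they were 229, and 405 in DESeq2, 362 without a filter, 345 with the length trend removed, 0 when only these groups were fitted and 2396 without DMSO day 10 replicate 1. At day 20, with 2 libraries per group, they were 11, and 39 in DESeq2, 64 without a filter, 20 with the block within each day and 3 in the fit of only these groups. Genes with few counts, acs-18 and acdh-8 above all, limit what the age steps can show.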
